A study of Mus musculus with 4 samples.

Results

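The smooth muscle cells of the LATS1/2 KO mouse small intestine were 65 of the 4108 cells of 1 droplet-based single-cell library, or 1.58% (exact binomial 95% interval, 1.22% to 2.01%). They were chosen by a rule on 10 genes. A cell counted when it held a UMI (unique molecular identifier, a count of captured RNA molecules) of at least 3 of the 5 smooth muscle genes Cnn1, Actg2, Actc1, Nmur2 and Npnt, and of fewer than 3 of the 5 mural genes Rgs5, Vtn, Higd1b, Ndufa4l2 and Gja4. The reverse rule chose 57 mural cells (pericytes and the muscle cells of vessels), no cell passed both limits, and 3986 cells passed neither. Levels are given in CPM, the summed counts of a gene over a set scaled to a total of 1000000, and the 65 cells are compared with the other 4043.

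The library came from adult C57BL/6J mice carrying a tamoxifen-inducible CreERT2 under Pdgfrb control, a Tomato reporter and floxed Lats1 and Lats2 (Lats1f/f Lats2 f/f), taken 1 week after induction and labelled LATS1/2 KO 1w. Stromal cells positive for PDGFRb were sorted by flow cytometry before the RNA 3′ ends were read. The serosa and the muscle layer had been stripped from the small intestine. The WT and LATS1/2 KO data sets held 2 mice per group, but how many were in this library is not given in the sources used here, and no label ties a cell to a mouse. Neither WT (2 libraries) nor LATS1/2 KO 2w was analysed here, so no value below is a change caused by the loss of LATS1/2. Cre under Pdgfrb acts only in cells that used this promoter when tamoxifen was given, which limits the muscle cells that could carry the reporter. All 65 smooth muscle cells and all 4043 other cells held a Pdgfrb UMI. Whether cells without one had been left out is not given in the sources used here. The Pdgfrb levels below are thus those of cells that each held at least 1 such UMI.

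Visceral smooth muscle contracts when calcium enters the cell and activates myosin light chain kinase, so that myosin pulls on filaments of smooth muscle actin. The genes of this machinery are switched on together by serum response factor (SRF), which binds a short DNA element called the CArG box, together with its partner myocardin. In the intestinal villus thin strands of smooth muscle run beside the lacteal, the lymphatic vessel that takes up fat. LATS1 and LATS2 are the kinases that hold back the coactivators YAP and TAZ, which drive target genes such as Cyr61, Ctgf and Amotl2 through TEAD factors.

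There was 1 library and so no replicate, and no test between conditions was possible. Intervals are exact 95% intervals and cover counting error only. The smooth muscle cells held 674721 of 46054627 UMIs. Their depth ran from 3463 to 23079 UMIs a cell with a median of 8292, against a median of 10748 in the other cells and 6397 in the mural cells. They had a median of 2943 detected genes, against 3335 in the other cells. Mitochondrial RNA made up a median of 5.98% of their UMIs, against 4.85% in the other cells, and 92.3% of them were above 5%, against 43.8% of the other cells. In the 5 cells at or below 5%, 11 of the genes named below had ratios on the other side of 1 (Arhgef17, Eln, Etv1, Gja1, Gpr20, Gucy1b1, Kcnj8, Kcns3, Nt5e, Pde3a and S1pr3), with intervals that held 1 for 9 of them, all but Eln and S1pr3. The file marked columns as M or F. Per the study's methods cells were split by the presence of Xist, so that an M cell is one without a Xist UMI (1983 cells) and an F cell one with it (2125), and whether M and F cells came from separate mice is not given in the sources used here. In all, 21 of the 65 cells stood in M columns (32.3%, 21.2% to 45.1%), against 48.5% of the other cells. Among cells of 8000 to 14000 UMIs (20 of them smooth muscle) the ratio of contractile RNA described below was 9.73 and that of fibroblast matrix RNA 0.368. At or below 5% mitochondrial UMIs the ratios were 5.66 and 0.644. Values by M and F columns are given where a result turns on them.

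The rule genes describe the choice and carry no test. Actg2, enteric smooth muscle actin, was seen in all 65 chosen cells with 1404 UMIs, and in 209 of the other cells with 363 UMIs. Cnn1, the actin-binding protein calponin, was seen in 64 cells, Npnt, the matrix protein nephronectin, in 62, Actc1, cardiac actin, in 40 and Nmur2, a neuromedin U receptor, in 37. Nmur2 gave 59 UMIs in the chosen cells and 1 UMI in the remainder of the library. Of the mural rule genes, Vtn, Higd1b and Gja4 had 0 UMIs in the chosen cells and Ndufa4l2 had 2. Rgs5 was seen in 37 of the 65 cells and in 2857 of the other 4043, and stood at 405, 496 and 3092 CPM in the smooth muscle, other and mural cells. All 5 smooth muscle rule genes were seen in 24 cells, 4 of them in 25 and 3 in 16. Just outside the limit, mural cells left out, stood 32 cells with 2 rule genes and 289 with 1.

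A contractile list of 42 genes that left out the rule genes gave a median of 4.50% of the UMIs of cells with 3 rule genes, 5.40% with 4 and 7.29% with all 5. These cells had median depths of 7168, 7450 and 9908 UMIs. With mural cells left out, the same share was 1.20% in the 32 cells with 2 rule genes and 0.592% in the 289 with 1. Contractile RNA thus stood higher the more rule genes were seen, as the plot of contractile RNA on both sides of the rule shows. The lowest of the 65 cells held 1.63%, and 246 of the 4043 other cells were at or above it, 46 of them mural cells. The median smooth muscle cell held 5.35%, and 6 other cells reached that share. When the cells were clustered without the rule genes and without sex-linked genes, all 65 fell into 1 cluster of 77 cells, and 53 of the 57 mural cells fell into another of 70. Of the 12 cells of the first cluster that the rule left out, 9 held 2 rule genes, 2 held 1 and 1 held none.

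**Figure D1:**
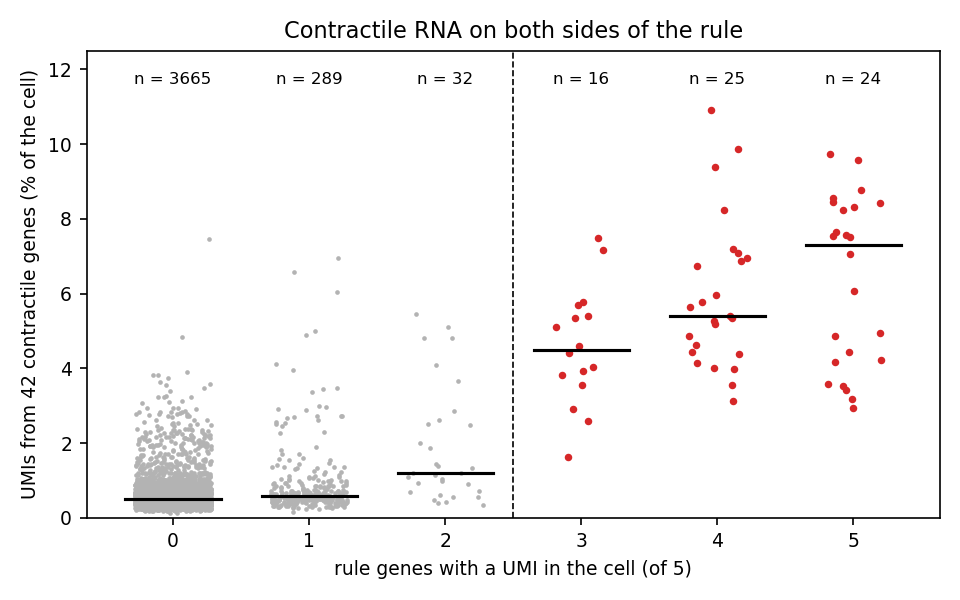
Percent of a cell's UMIs from 42 contractile genes (y axis) against the number of rule genes with a UMI (x axis), 1 point per cell, mural cells left out. Bars are medians, which go from 1.20% at 2 rule genes to 7.29% at 5, and the dashed line is the limit of the rule.

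The label smooth muscle was checked with 8 genes outside the rule: Acta2, Myh11, Tagln, Des, Lmod1, Synpo2, Smtn and Myocd. All 8 were at least 2-fold higher in the 65 cells than in the other cells, and their summed level was 22798 against 1126 CPM, a ratio of 20.3 (19.9 to 20.6). In the mural cells the sum was 9719 CPM. Markers of several other tissues were at 0 in the 65 cells. All 6 endothelial, all 5 epithelial and all 3 mesothelial genes had 0 UMIs, but their sums were 1.56, 0.375 and 0.198 CPM in the other cells, under the 4.45 CPM that a count of 0 allowed here, and the authors had taken out endothelial and immune clusters. Of 4 genes of interstitial cells of Cajal, Kit and Ano1 were at 0, whereas Etv1 stood at 14.8 against 33.8 CPM and Gpr20, an orphan receptor, at 26.7 (15.8 to 42.2) against 1.74 in the other and 30.2 in the mural cells. The 4 genes summed to 41.5 against 37.0 CPM. Also at 0 were Sox10, S100b and Gfap of glia, and Ptprc and Tyrobp of immune cells. The immune list as a whole summed to 22.2 CPM, against 39.5 in the other cells. Notch3 and Heyl, markers of mural cells, were at 0 too. Over all 7 mural markers outside the rule the sum was 119 CPM in the 65 cells, 96.6 in all other cells and 1392 in the mural cells.

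The chosen cells differed in how much fibroblast RNA they carried. In 14 of the 65 cells at least 3 of the fibroblast genes Fbln1, Pdgfra, Cd34 and Mgp were seen, as in 3565 of the other cells, while 30 of the 65 held none of the 4. The 14 cells were deep, with 13356 to 22294 UMIs and a median of 16513.5, whereas the other 51 had a median of 7303 and 41 of them lay below 10000. The 14 cells held a median of 3.56% contractile UMIs against 5.97% in the 51. Their share from a list of 31 fibroblast matrix genes was 2.83% against 1.43%. That list also held Pdgfra and Cd34, so part of this difference follows from the choice of the 14 cells. Of the 65 cells 4 held both Xist and Y-linked UMIs (6.15%), against 2.77% of the other cells, and all 4 were among the 14. An M cell, having no Xist UMI, cannot hold both. Among F cells alone the shares were 9.09% of 44 smooth muscle cells (2.53% to 21.7%) and 5.38% of 2081 other cells (4.45% to 6.44%). No doublet caller was run, and each ratio that these 14 cells move by more than 1.5 times is given with and without them. The plot of contractile and fibroblast matrix RNA in single cells shows the 14 cells between the other smooth muscle cells and the bulk of the library.

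**Figure D2:**
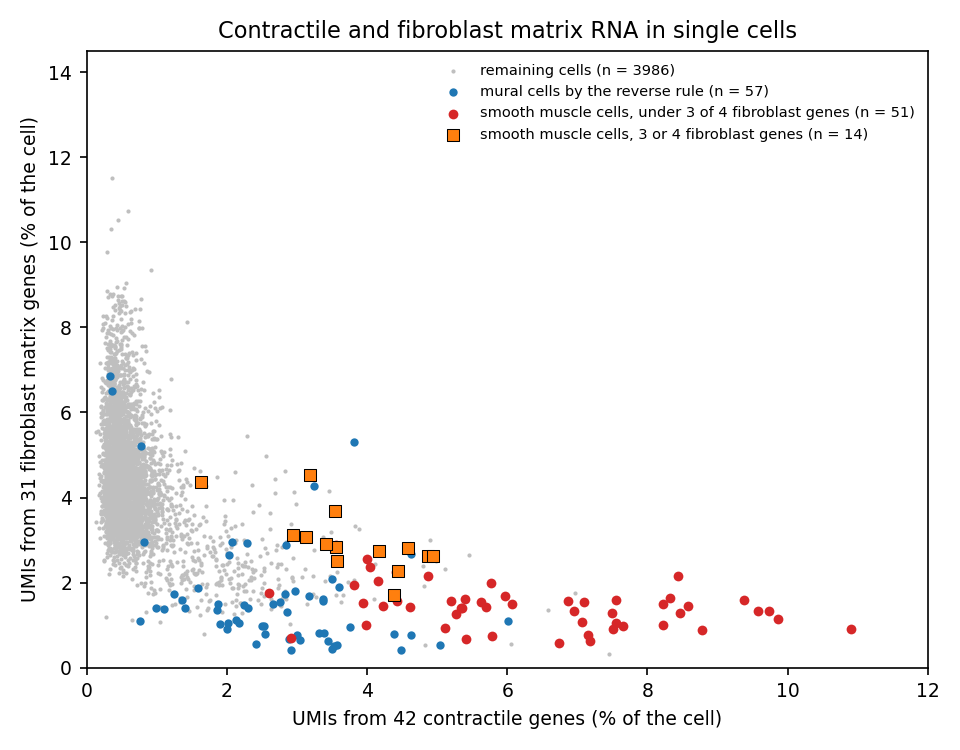
Percent of each cell's UMIs from 42 contractile genes (x axis) and from 31 fibroblast matrix genes (y axis), 1 point per cell. The 65 smooth muscle cells lie between 1.63% and 10.9% on the x axis, the 14 with fibroblast genes (squares) have higher matrix shares than most of the other 51, and the median remaining cell is at 0.521% and 4.31%. The matrix genes include Pdgfra and Cd34, which were used to choose the 14 cells.

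Across the 6176 genes whose mean level over the 2 sets was at least 20 CPM, 380 (6.15%) were at least 2-fold higher in the smooth muscle cells and 457 (7.4%) were at or below 0.5 times the level of the other cells. The median gene had a ratio of 1.04. In what follows higher and lower mean these limits. Of the 6176 genes 765 reached the filter through 1 set alone, the level in the other set being under 20 CPM. Such a gene had to differ, so counts and medians over filtered genes are descriptions, and counts with no filter or the ratio of the summed levels of the whole list are given with them. As the cells were chosen by the RNA of this same library, the counts describe the set and nothing is read from their excess over these shares. Against the 57 mural cells, 507 of 6325 genes (8.02%) were higher and 691 (10.9%) were lower.

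**Figure D3:**
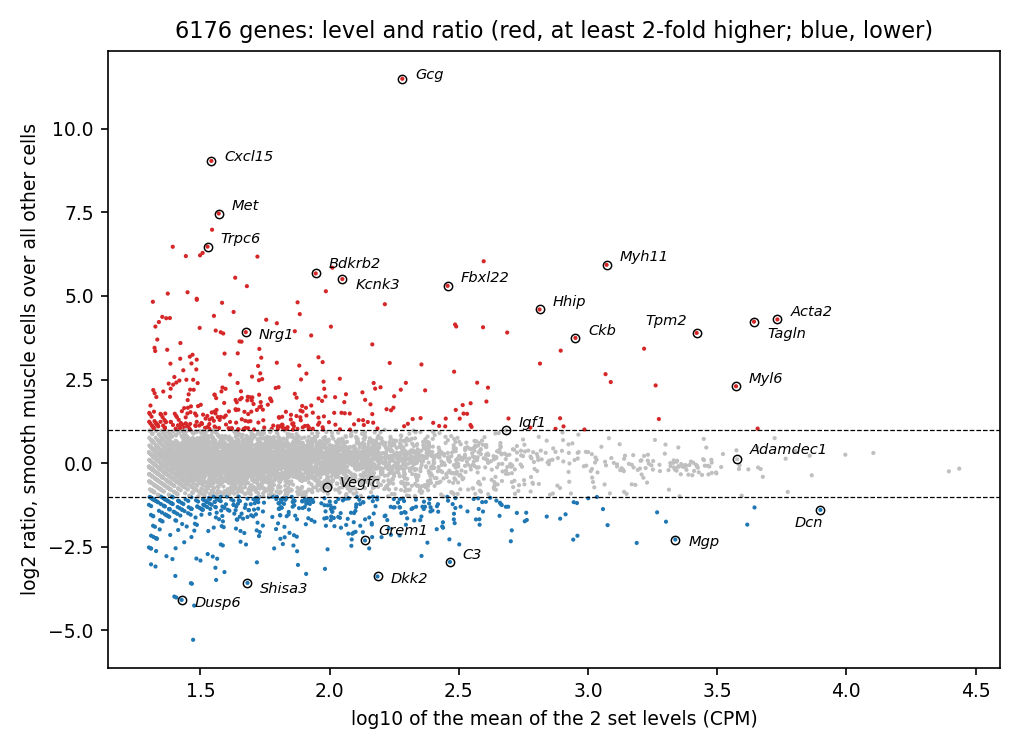
Log2 ratio of the smooth muscle cells over all other cells (y axis) against the log10 mean level in CPM (x axis) for 6176 genes, with dashed lines at ratios of 2 and 0.5. Points in red are the 380 higher genes and points in blue the 457 lower ones; Myh11, Acta2 and Tagln combine a high ratio with a high level, and all Gcg UMIs of the smooth muscle cells came from 1 cell.

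The contractile machinery was the plainest feature. Of the 37 contractile genes past the level filter, 30 were higher, none was lower and the median ratio was 5.37, against 1.04 over all genes. With no filter 34 of 42 were higher and 1 was lower. The summed level of all 42 genes was 54843 against 7071 CPM, a ratio of 7.76 (7.67 to 7.84), and 26859 CPM in the mural cells. Acta2, smooth muscle actin (ENSMUSG00000035783, chr19:34241090-34255590, - strand, gene positions being those of mm10 in GENCODE M21), stood at 10295 CPM (10054 to 10539.6) against 523 in the other cells, a ratio of 19.7. The lowest smooth muscle cell held 29.0 Acta2 UMIs per 10000, the median cell 101 and the highest 227, so that no chosen cell lacked it. Myh11, the smooth muscle myosin heavy chain (ENSMUSG00000018830, chr16:14194535-14291372, - strand), stood at 2324 against 38.1 CPM, a ratio of 61.1 (57.0 to 65.4). Every one of the 65 cells held a Myh11 UMI, against 501 of the other 4043, and after thinning each cell to 5000 UMIs the shares were 100% of 64 and 7.57% of 3950 cells.

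Other filament genes were higher too. Tagln, the actin-bundling protein transgelin, reached 8339.7 against 444 CPM. Tpm2, a tropomyosin, was 14.9 times and Myl9, the regulatory myosin light chain, 10.7 times the level of the other cells. Lmod1, leiomodin, which nucleates actin filaments in muscle, had a ratio of 65.8 (58.2 to 74.3) and was seen in 63 of 65 cells. Des, the muscle intermediate filament desmin, stood at 741 CPM in the smooth muscle cells, 44.3 in the other cells and 753 in the mural cells, the intervals of smooth muscle and mural cells overlapping. Genes of the links between filaments and membrane were also among the 30: Flna, filamin (7.88), Vcl, vinculin (4.58), Dmd, dystrophin (4.34), Cav1, caveolin (5.75), and Pgm5, a partner of dystrophin (16.9). Myl6, the essential myosin light chain of many cell types, had a ratio of 4.92, and Cald1, caldesmon, 2.01. Cald1 was lower here than in mural cells, at 1294 against 2661 CPM. Ckb, a creatine kinase that regenerates ATP, was 13.4 times higher (1664 against 124 CPM), the 1 higher gene of 4 energy genes past the filter (4 of 16 were higher and 4 lower with no filter). Hspb1, a small heat shock protein that binds actin, was 27.0 times higher. Some of these genes stood near the mural level. Hspb1, Cav1, Vcl and Dmd gave 130, 89, 132 and 97 of the 463428 mural UMIs. In the smooth muscle cells they gave 213, 126, 209 and 147 of 674721. Against mural cells 19 of 38 contractile genes were higher and 3 lower.

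The transcription factors split. Of 11 past the filter, 5 were higher and 2 lower, and the median ratio was 1.99. Over all 23 detected factors, with no filter, the median was 0.913, with 7 higher and 9 lower, and the summed level had a ratio of 1.30 (1.24 to 1.36). Myocd, myocardin, was 18.2 times higher (14.0 to 23.3), at 119 against 6.52 CPM in the other cells and 34.5 in the mural cells. Its partner Srf was 2.61 times higher (1.82 to 3.62), whereas the MRTF coactivators, listed as Mkl1 and Mkl2, lay below the filter with ratios of 0.913 and 0.924. Mef2c, another muscle factor, was 3.19 times higher than in the other cells but reached 503 CPM in the mural cells against 81.5 here. Nkx2-3, a homeobox factor of gut mesenchyme, was seen in all 65 cells and was 2.14 times higher, and Foxf2, a forkhead factor of the same tissue, 2.68 times higher (1.44 by the M and 3.36 by the F columns). Klf4, a repressor of muscle genes, was lower at 0.324 times (0.149 without the 14 cells), as was Meis2, a homeobox factor, at 0.365 times (0.244 without them).

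The CArG box was sought in the RefSeq promoter windows of these genes (GRCm38.p6, 250 bases before to 50 after the start of the gene). The box was spelled as CC, then 6 letters that were each A or T, then GG. It reads the same on both strands in this definition. Of the 34 contractile genes with a window, 5 held a box (14.7%: Dmd, Ldb3, Myl6, Myl9 and Vcl), against 2.05% of 4872 genes past the level filter and 1.81% of all 27025 windows. Among the genes at least 2-fold higher it was 18 of 292 (6.16%), among the lower genes 4 of 323 (1.24%). A match is a run of letters and not a shown binding site. The sequences below show the box, in capitals, in genes whose levels are described here; each is a part of its window outside the annotated exons, read 5′ to 3′ on the strand of the gene.

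Myl9: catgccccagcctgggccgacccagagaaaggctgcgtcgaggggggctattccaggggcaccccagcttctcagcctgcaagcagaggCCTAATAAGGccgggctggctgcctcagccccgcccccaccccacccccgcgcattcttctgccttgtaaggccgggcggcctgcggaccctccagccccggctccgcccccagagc
Vcl: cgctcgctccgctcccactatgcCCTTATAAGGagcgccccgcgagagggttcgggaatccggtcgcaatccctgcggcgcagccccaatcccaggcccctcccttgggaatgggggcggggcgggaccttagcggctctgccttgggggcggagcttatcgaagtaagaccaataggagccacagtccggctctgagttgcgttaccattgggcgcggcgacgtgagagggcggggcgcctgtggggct
Actc1: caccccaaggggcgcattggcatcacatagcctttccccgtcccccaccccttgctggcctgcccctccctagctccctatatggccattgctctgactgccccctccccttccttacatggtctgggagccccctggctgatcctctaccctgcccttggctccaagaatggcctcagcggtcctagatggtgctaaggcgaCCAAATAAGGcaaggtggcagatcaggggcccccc
Asb2: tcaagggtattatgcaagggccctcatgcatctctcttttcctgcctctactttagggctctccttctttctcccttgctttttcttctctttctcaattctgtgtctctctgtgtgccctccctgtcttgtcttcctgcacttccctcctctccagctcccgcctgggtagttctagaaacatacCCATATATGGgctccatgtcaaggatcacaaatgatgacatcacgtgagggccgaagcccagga
Trpc6: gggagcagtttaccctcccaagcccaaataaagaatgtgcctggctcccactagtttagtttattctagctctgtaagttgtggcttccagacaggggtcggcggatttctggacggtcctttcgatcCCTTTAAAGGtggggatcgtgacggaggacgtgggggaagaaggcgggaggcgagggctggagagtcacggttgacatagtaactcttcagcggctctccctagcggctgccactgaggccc

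The Myl9 stretch is chr2:156775214-156775419 (+ strand), with the box 161 bases before the RefSeq start of the gene. The Vcl stretch is chr14:20929148-20929397 (+ strand), with the box 227 bases before the start. The Actc1 stretch, shown because Actc1 is a rule gene, is chr2:114052888-114053125 (- strand), with the box 47 bases before the start; in the GENCODE M21 annotation it lies within an intron of a longer Actc1 transcript and of the noncoding gene A530058N18Rik. The Asb2 and Trpc6 stretches, shown because both were among the genes with the highest ratios, are chr12:103356002-103356251 (- strand) and chr9:8543892-8544141 (+ strand), with boxes 64 and 122 bases before the start. All but Actc1 lie upstream of annotated transcripts. The leading higher genes held a box in 4 of 17 windows (23.5%) and the leading lower genes in none of 12.

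Of the genes that handle calcium, 6 of 13 past the filter were higher, 4 of them through the level of the smooth muscle cells alone. With no filter 11 of 23 were higher and 3 lower, and the summed level had a ratio of 1.83 (1.70 to 1.97). Against mural cells the ratio of summed levels was 0.794 (0.714 to 0.884). Cacna1h, a T-type calcium channel, stood at 59.3 against 1.96 CPM, a ratio of 30.2 (20.3 to 44.4). Trpc6, a receptor-operated cation channel, had a ratio of 89.0 (55.8 to 143) and was seen in 27 cells of each set, that is 27 of 65 against 27 of 4043. Casq2, calsequestrin, which stores calcium in the sarcoplasmic reticulum, was 12.4 times higher (2.57 by M and 18.2 by F columns), and Jph2, junctophilin, which ties that store to the cell membrane, 5.54 times. In the mural cells (463428 UMIs) Cacna1h, Trpc6, Casq2 and Jph2 gave 5, 18, 10 and 19 UMIs. The smooth muscle cells (674721 UMIs) gave 40, 45, 57 and 30. The L-type channel gene Cacna1c lay under the filter, at 22.2 CPM (12.4 to 36.7) against 1.61, and was higher in mural cells, at 64.7 (43.7 to 92.4). Pln, phospholamban, the brake on the calcium pump, gave 1 UMI in the smooth muscle cells and 106 CPM in the mural cells. Ryr2, a calcium release channel, gave 4 UMIs here and 66.9 CPM there. Smooth muscle and mural cells, both contractile, thus differed in the levels of Cacna1c, Pln and Ryr2.

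Potassium channels, which set the resting potential and damp contraction, had a summed level 3.10 times that of the other cells (2.79 to 3.44) over all 13 genes. With no filter 7 were higher, 5 lower and the median ratio was 2.13. The filter passed 7 (5 higher, 2 lower), 6 of them through 1 set alone. Kcnma1, the pore of the large-conductance calcium-activated channel, was 46.8 times higher (32.7 to 66.4), and Kcnmb1, its smooth muscle beta subunit, 15.1 times. Kcnk3, a leak channel, stood at 219 against 4.83 CPM and was seen in 53 of 65 cells. Kcnh2, a delayed rectifier, was 20.7 times higher and Kcns3, a modulatory subunit, 2.13 times. The lower genes were Kcnn3, a small-conductance channel (0.245, or 0.158 without the 14 cells), and Kcnj8, the pore of the ATP-sensitive channel (0.428). The 5 higher genes were higher against the mural cells too, where Kcnma1 gave 1 UMI and Kcnk3 4.

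Enzymes that set tone between calcium and myosin followed. Of 18 past the filter, 8 were higher and 2 lower, with a median ratio of 1.44 and a ratio of summed levels of 1.89 (1.83 to 1.95). Against mural cells the ratio of summed levels was 0.934 (0.887 to 0.983), with 4 higher and 4 lower. Mylk, myosin light chain kinase, stood at 1430.2 against 139 CPM, a ratio of 10.3 (9.62 to 11.0), and 453 CPM in mural cells. The phosphatase that opposes it was represented by its targeting subunits Ppp1r12a (4.52) and Ppp1r12b (3.92) and by its inhibitor Ppp1r14a, CPI-17 (2.79). On the nitric oxide side, Prkg1, the cyclic GMP kinase (2.60), its substrate Mrvi1 (4.43) and the phosphodiesterase Pde5a (2.99) were higher. The guanylate cyclase subunits Gucy1a1 and Gucy1b1, which make cyclic GMP, had ratios of 0.830 and 0.785, and Gucy1b1 reached 527 CPM in mural cells against 101 here. Lower were Pde3a, another phosphodiesterase (0.444, or 0.255 without the 14 cells), and Prkca, a protein kinase C (0.499; 0.258 without the 14 cells).

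Receptors for contractile signals went both ways, with 4 of 12 past the filter higher and 5 lower. With no filter 6 of 29 were higher and 16 lower, and the ratio of summed levels was 0.886 (0.821 to 0.956). Bdkrb2, the bradykinin receptor (ENSMUSG00000021070, chr12:105563226-105595237, + strand), stood at 173 CPM (143 to 208) against 3.39 in the other cells, a ratio of 51.1. It was seen in 54 of 65 smooth muscle cells, in 121 of 4043 other cells and in no mural cell, where 0 of 463428 UMIs allowed up to 6.47 CPM (3 counts of the total). Ednrb, an endothelin receptor (3.54), Ptger1, a prostaglandin E2 receptor (3.35), and P2ry1, a purine receptor (2.47), were the other higher genes. The lower ones were the angiotensin receptor Agtr1a (0.171, or 0.106 without the 14 cells), the VIP receptor Vipr2 (0.307; 0.136 without the 14 cells), the thrombin receptor F2r (0.404), and the lipid receptors S1pr3 (0.451; 0.161 without the 14 cells) and Lpar1 (0.483). The muscarinic receptors that carry cholinergic drive to the outer muscle were scarce. Chrm2 gave 0 UMIs, which allowed up to 4.45 CPM (3 counts), and Chrm3 gave 2.

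**Figure D4:**
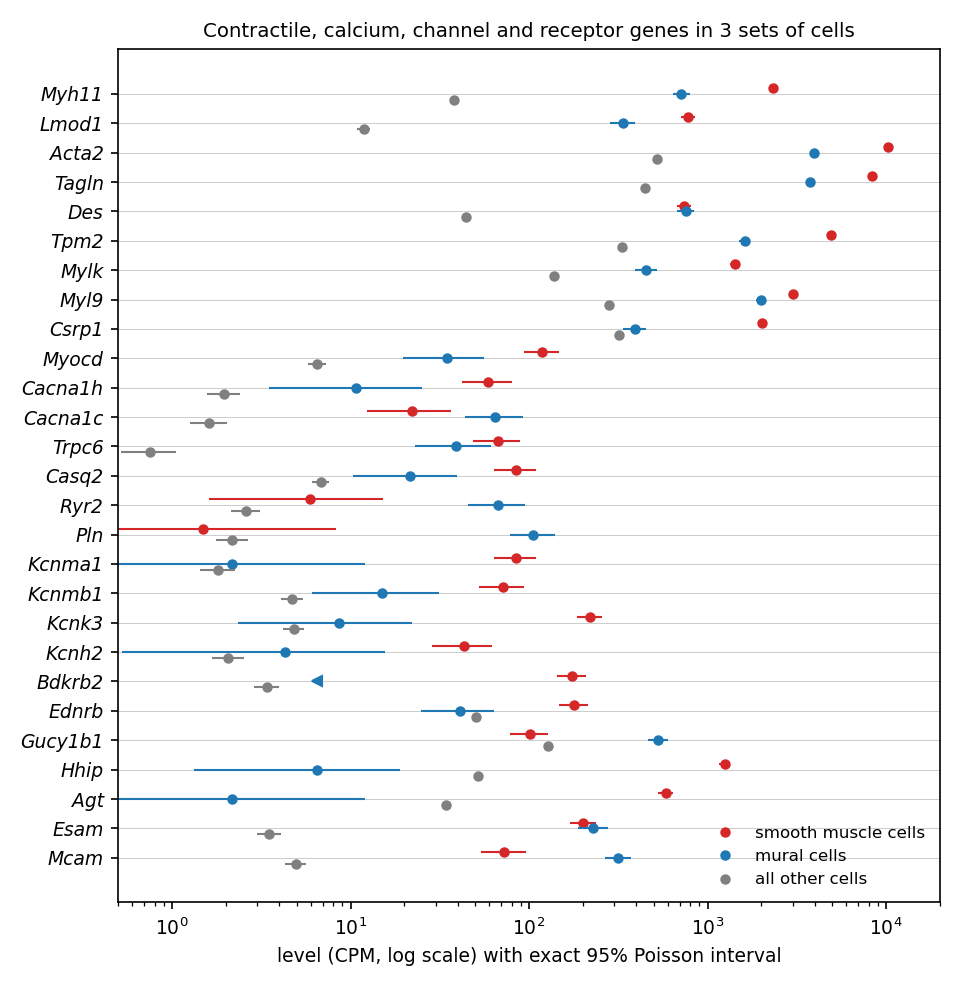
Levels in CPM (x axis, log scale) of 27 genes in the smooth muscle cells (red), the mural cells (blue) and all other cells (gray); lines are exact 95% Poisson intervals and the triangle marks the limit of 3 counts for Bdkrb2 at 0 UMIs in mural cells. Des and Esam overlap between smooth muscle and mural cells, Pln and Ryr2 are higher in mural cells, and Hhip, Agt and Kcnk3 are higher in smooth muscle cells.

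Against the mural cells, the contractile sum was 2.04 times higher (2.00 to 2.08), and 19 of the 38 contractile genes past that comparison's filter were higher with 3 lower. Acta2 stood at a ratio of 2.60 and Myh11 at 3.26. Among genes with a UMI in at least 30% of the smooth muscle cells and 15 percentage points more than in mural cells, genes at 0 there being ranked by the limit of 3 counts, the leading gene over the mural cells was Agt, angiotensinogen, the precursor of angiotensin, at 584 CPM against 1 UMI in mural cells, a ratio of 271 (48.3 to 10716). Tes, a focal adhesion protein, followed the same course, with 579 against 17.3 CPM. Esam, an adhesion molecule shared with vessels, stood at 202 and 229 CPM in smooth muscle and mural cells and 3.50 in all other cells. Notch3, the receptor that vascular muscle depends on, gave 0 UMIs here, up to 4.45 CPM, against 602 CPM in mural cells. Bdnf, a neurotrophin, gave 1 UMI against 199 CPM, and Mcam, an adhesion molecule, 72.6 against 317 CPM (4.94 in all other cells). Pdgfrb, the gene behind the sort, stood at 333 CPM (291 to 380.0), against 1912 in mural and 536 in all other cells.

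When genes were ranked by their ratio to the other cells, asking for a UMI in 30% or more of the smooth muscle cells and a lead of 15 percentage points in that share, the first was Met, the hepatocyte growth factor receptor (ENSMUSG00000009376, chr6:17463800-17573980, + strand), at 74.1 CPM (55.0 to 97.7) against 0.419 (0.252 to 0.654), a ratio of 177 (103 to 318). It was seen in 31 of 65 smooth muscle cells, in 18 of the other 4043 and in no mural cell. Further leading genes with a known link to muscle were Asb2, a ubiquitin ligase subunit that acts on filamins (78.2), Fbxl22, an F-box protein of the sarcomere (39.5), and Rbm24, a splicing regulator of muscle (34.6). Optc, a small proteoglycan (33.6), Nptx2, a neuronal pentraxin (73.2), and Plekho1, a regulator of the actin cytoskeleton (35.3), were others. At the other end stood Dusp6, the phosphatase that damps ERK signaling, with 2 UMIs in the smooth muscle cells against 50.6 CPM in the other cells, a ratio of 0.0586 (0.00709 to 0.212). Ctsh, a lysosomal protease, gave 2 UMIs against 48.1 CPM, a ratio of 0.0616 (0.00746 to 0.223). All 4 UMIs of Dusp6 and Ctsh came from the 14 cells with fibroblast genes.

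Fibroblast matrix RNA was lower as a group. Of 29 genes past the filter 20 were lower, none was higher, and the median ratio was 0.398. The sum of all 31 genes stood at 0.448 times that of the other cells (0.441 to 0.456), and at 0.323 times without the 14 cells with fibroblast genes. The list held Pdgfra and Cd34, which were used to choose the 14 cells, so part of that drop follows from the choice. Dcn, decorin, was lower at 0.379 times (0.235 without the 14 cells) and Col1a1, a chain of collagen I, at 0.297 times (0.153). Mgp, matrix Gla protein, had a ratio of 0.205 and 0.00826 without the 14 cells, and Fbln1, fibulin, 0.205 and 0.00631, a drop that follows from the choice of the 14 cells by these genes. C3, complement, which was not used in that choice, went from 0.129 to 0.0177. Free RNA in the droplets was bounded at 10.1% of the level of the library, from Y-linked RNA in cells with at least 5 Xist UMIs.

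Adamdec1, a secreted protease and a hallmark of villus fibroblasts (ENSMUSG00000022057, chr14:68563380-68582095, - strand), did not follow the matrix genes. It stood at 3932 CPM (3784 to 4085) in the smooth muscle cells against 3628 in the other cells, a ratio of 1.08 (1.04 to 1.13), and at 455 CPM in mural cells. All 65 cells held it, with 1.10 UMIs per 10000 in the lowest cell, 34.2 in the median cell and 142 in the highest. The free RNA bound for this gene was 366 CPM, below the level measured. The ratio was 1.04 without the 14 cells, and 0.712 by the M and 1.20 by the F columns. Tcf21, a factor of fibroblasts, had a ratio of 0.949 and was seen in 63 of 65 cells. The villus fibroblast markers Shisa3 (0.0834, or 0.0258 without the 14 cells) and Serpina3n (0.493, or 0.249 without them) were lower. Short marker lists of the study's other fibroblast clusters were mixed. The 3 FB4 markers summed to 0.164 times the other cells, and to 0.0221 times (0.00602 to 0.0566) without the 14 cells. The FB5 sum had a ratio of 1.36 (1.12 to 1.63), but Bmp5 gave 93 of its UMIs and its members parted, with Foxl1 at 5.20, Sox6 at 0.476 and Bmp7 at 1 UMI. The vFB3 sum had a ratio of 1.12 (0.955 to 1.30), of which Fhl2 gave 148 UMIs, while Mmp10 gave 1 UMI and Tacr1 0.

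The wider matrix list, of basement membrane, elastic fiber and integrin genes, held 3 higher and 13 lower genes of 28 past the filter, and the summed level had a ratio of 0.535 (0.520 to 0.551). Postn, periostin, was higher at 3.46 times (545 against 158 CPM), as were the integrin subunits Itga9 (4.13) and Itga5 (3.70). Col4a1, a chain of the basement membrane collagen IV, had a ratio of 1.27. Eln, elastin, was lower at 0.399 times. It stood at 0.0999 times without the 14 cells, and 1 cell held 35 of its 68 UMIs. Among junction genes 5 of 16 were higher and 5 lower with no filter, and the summed level had a ratio of 1.16 (1.09 to 1.23). Past the filter 3 of 9 were higher and 2 lower: Gjc1, connexin 45 (2.04), and Cdh6, a cadherin (20.2), were higher with Mcam, and Gja1, connexin 43 (0.450), and Cdh11, the mesenchymal cadherin (0.445), were lower.

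Hedgehog signals from the epithelium act on the mesenchyme and on muscle beneath it, and response genes include Ptch1, Gli1 and Hhip, which bind or answer the ligand. Hhip, the hedgehog-interacting protein (ENSMUSG00000064325, chr8:79965851-80058006, - strand), stood at 1248 CPM (1165 to 1335) against 51.6 in the other cells and 6.47 in mural cells. The ratio to the other cells was 24.2 (22.3 to 26.2), and 64 of 65 smooth muscle cells held it against 1086 of 4043. The median smooth muscle cell had 11.3 Hhip UMIs per 10000 and the highest 36.0. Gas1, a coreceptor, was 4.82 times higher. Ptch1, the receptor, and Gli1, the effector, had ratios of 1.86 (1.63 to 2.12) and 1.62 (1.13 to 2.24), under the limit of 2. Of 7 hedgehog genes past the filter 2 were higher and none was lower. With no filter 2 of 11 were higher and 1 was lower, and the ratio of summed levels was 4.22 (3.99 to 4.45). This list was put together after values had been seen.

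The library was made to study loss of LATS1/2, and the next genes are those of that pathway. Reads from RNA 3′ ends do not show whether the floxed parts of Lats1 and Lats2 were removed, so the levels check no label. Lats1 stood at 20.7 CPM (11.3 to 34.8) against 14.1 and Lats2 at 40.0 (26.4 to 58.2) against 53.7, and for both genes the intervals of the 2 sets overlapped. Yap1 had a ratio of 1.12 (0.764 to 1.59) and Wwtr1, which encodes TAZ, 1.06 (0.858 to 1.30). Of 13 Hippo genes past the filter, 1 was higher, Stk4, the kinase MST1 (2.15), and none was lower. With no filter 1 of 16 was higher and 1 was lower, and the ratio of summed levels was 0.943 (0.857 to 1.03).

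The YAP/TAZ target genes did not move as a block. Of 17 past the filter 3 were higher and 5 lower (3 and 10 of all 24 with no filter), the median ratio was 0.684, and the sum stood at 0.656 times that of the other cells (0.618 to 0.695). Against mural cells the sum was 0.349 times. Amotl2, an angiomotin that binds YAP (ENSMUSG00000032531, chr9:102716672-102733418, + strand), was lower at 41.5 against 152 CPM, a ratio of 0.273 (0.181 to 0.395; 0.136 without the 14 cells). Cyr61, a secreted matricellular protein, was lower at 0.409 times. Tgfb2, a growth factor (0.321; 0.0466 without the 14 cells), Igfbp3, which binds insulin-like growth factors (0.318; 0.0606 without them), and Crim1, a BMP-binding membrane protein (0.467; 0.310 without them), were lower too. The higher genes were Nt5e, the ectoenzyme CD73 that makes adenosine (29.6, 19.9 to 43.3), Foxf2 and Arhgef17, an exchange factor for small GTPases (2.22). In the mural cells (463428 UMIs) Nt5e, Foxf2 and Arhgef17 gave 0, 4 and 63 UMIs. The smooth muscle cells (674721 UMIs) gave 40, 80 and 37, so Arhgef17 was higher in mural cells. Ctgf, a matricellular protein like Cyr61, had a ratio of 1.45 (1.11 to 1.86), but the columns parted, at 2.90 by M and 0.831 by F. A single cell held 14 of its 63 UMIs, and without that cell the ratio was 1.14 (0.839 to 1.51), an interval that held 1.

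VEGF-C, the lymphatic growth factor that lacteals need, is the secreted product the study followed. Vegfc (ENSMUSG00000031520, chr8:54077606-54187096, + strand) stood at 74.1 CPM (55.0 to 97.7) in the smooth muscle cells, 121 (118 to 124) in the other cells and 69.1 (47.2 to 97.5) in mural cells. The ratio to the other cells was 0.613 (0.454 to 0.809), at 0.904 (0.558 to 1.38) by the M and 0.483 by the F columns. A Vegfc UMI was seen in 28 of the 65 smooth muscle cells, and after thinning to 5000 UMIs the shares were 34.4% of the smooth muscle and 34.2% of the other cells. Among cells of 8000 to 14000 UMIs the Vegfc ratio was 0.693 (0.395 to 1.13), an interval that held 1. The level of the set was thus lower over all 65 cells, and the comparisons at like depth gave no clear order. Vegfa gave 5 UMIs, and its ratio of 0.619 had an interval from 0.200 to 1.45.

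Of 28 secreted factors past the filter 5 were higher and 11 lower, with a median ratio of 0.675. With no filter 9 of 49 were higher and 22 lower, and the ratio of summed levels was 0.632 (0.608 to 0.656). Pdgfc, a platelet-derived growth factor, had the highest ratio, 39.2 (28.3 to 54.0), and was seen in 36 of 65 cells against 92 of 4043. Nrg1, neuregulin, a ligand of the ErbB receptors, had a ratio of 15.1 with 60 UMIs in 26 cells. A single cell held 25 of these UMIs, and without it the ratio was 9.04 (6.16 to 12.9). Fgf7, a fibroblast growth factor for epithelium (2.37), and Vegfb (2.32) were also higher. Wnt4, a Wnt ligand, was higher at 2.03 times, yet at 0.510 by M and 3.18 by F columns. Igf1 and Bmp5 had ratios of 1.97 and 1.55, under the limit.

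The lower factors included signals that fibroblasts send to the crypt and to leukocytes. Dkk2, a Wnt inhibitor, stood at 26.7 against 280.0 CPM, and all 18 of its UMIs came from the 14 cells with fibroblast genes. Grem1, a BMP antagonist of the crypt base, was lower at 0.201 times. Its 31 UMIs lay in 5 cells with 21 in 1 of them, and the ratio was 0.0201 without the 14 cells. Cxcl12 (0.316; 0.130 without the 14 cells) and Cxcl13 (0.181), chemokines for leukocytes, Rspo3, an enhancer of Wnt signals (0.376), Bmp2 (0.401) and Sfrp1, a Wnt antagonist (0.495), were lower. The plot of YAP/TAZ target genes and secreted factors shows that most of these ratios stood on the same side of 1 in M and F columns, with Ctgf, Wnt4 and Ajuba (6 UMIs) as the exceptions among the genes drawn.

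**Figure D5:**
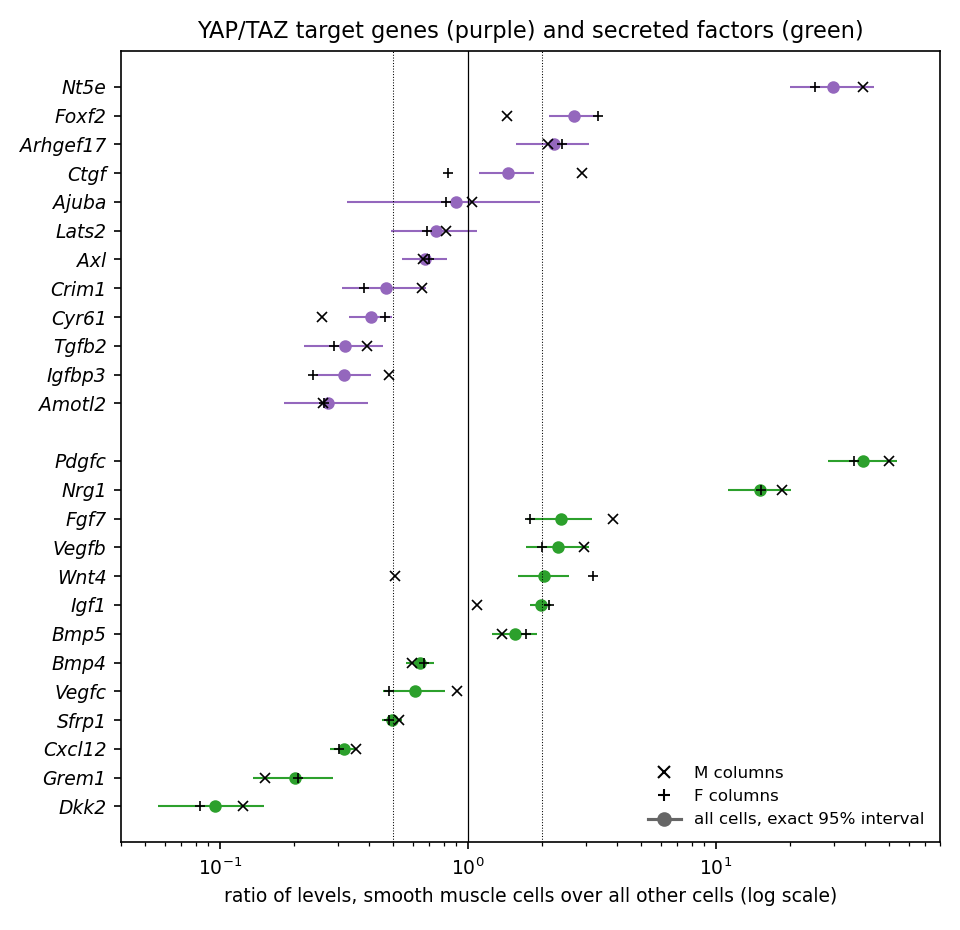
Ratio of levels, smooth muscle cells over all other cells (x axis, log scale), for 12 YAP/TAZ target genes (purple) and 13 secreted factors (green). Circles and lines are all cells with exact 95% intervals, crosses and plus signs are the M and F columns alone, and dotted lines mark ratios of 2 and 0.5; Nt5e and Pdgfc lie far to the right, Amotl2, Grem1 and Dkk2 to the left.

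Immediate early genes, which dissociation can induce, were listed together with the heat shock genes Hspa1a, Hspa1b, Hsp90aa1 and Dnajb1. The list was near the level of the other cells. Of its 17 genes past the filter none was higher and 2 were lower, Atf3 (0.427) and Dusp1 (0.469), and the median was 0.931. The summed level of all 17 had a ratio of 0.957 (0.928 to 0.985). Fos, the first of them, stood at 984 against 1194 CPM, with 25 of the 65 cells at 0 UMIs and 19 at 10 or more. In mural cells it stood at 3017 CPM, and 14 of 17 of these genes were lower in smooth muscle than in mural cells. Of 10 cell cycle genes 1 passed the filter, and Mki67 gave 0 UMIs.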

How the data were processed

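RNA of sorted stromal cells was read from the 3′ ends with a droplet kit. Per the labels the authors aligned reads to mm10 with Cell Ranger 3.0.2 and processed counts with Seurat 3.0.1. Their cell filter asked for 1000 to 6000 genes and set a mitochondrial limit of 7%, and immune and endothelial clusters were taken out. The deposited values were on a natural log scale: the authors scaled each cell to 10000, added 1 and took ln. After exponentiation every one of the 13789523 nonzero values was a whole number of steps of its cell (tolerance 0.001), so UMI counts were read back from them and no cell was removed.

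UMIs were summed over the cells of a set. Levels carry exact Poisson intervals and ratios exact conditional binomial intervals, with Python 3.11.15 and SciPy 1.17.1. With 1 library no test between samples could be run. Genes were compared where the mean of both levels was at least 20 CPM, the 10 rule genes left out. Clustering in Seurat 5.3.0 (R 4.3.3) used 1987 variable genes, 30 principal components and a resolution of 0.5. The counting of ratios was tested on simulated data. Promoter windows came from RefSeq GRCm38.p6 and gene positions from GENCODE M21.

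The named genes were those of fixed lists, plus the 25 with the highest and the 15 with the lowest ratio among genes seen in at least 30% of one set and at least 15 percentage points more than in the other, and 10 each way against the mural cells. The set of cells and the lists were chosen with earlier results of these data known. The hedgehog list and the 4 fibroblast genes were added later. Alternatives varied the rule, the cells, the depth, the fold limit and the level filter. The WT and LATS1/2 KO 2w libraries were not analysed here.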

Additional observations from a re-analysis of the deposited data

How the results depend on the processing

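No paired analysis was possible because the 65 cells came from 1 library. With 2 rule genes as the limit, 226 genes were lower and the list ratios were 6.13 (contractile), 0.561 (fibroblast matrix) and 0.727 (YAP/TAZ targets); with 4, the contractile ratio was 8.07, and with the rule applied to cells thinned to 5000 UMIs, 8.01 with a matrix ratio of 0.436. At most 5% mitochondrial UMIs left 5 smooth muscle cells, with 1388 higher and 715 lower genes, ratios of 5.66, 0.644 and 0.840 for the 3 lists and 0.304 for Vegfc. Without cells holding Xist and Y-linked UMIs the contractile and matrix ratios were 8.17 and 0.405. The M columns (21 cells) gave 0.410 for the matrix list and 0.904 for Vegfc, and the F columns 0.461 for the matrix list. Cells with 8000 to 14000 UMIs (20 smooth muscle cells) gave 652 higher genes and ratios of 9.73 and 0.368. Against cells that were neither smooth muscle nor mural the contractile ratio was 7.99. Without the 14 cells with fibroblast genes, an alternative chosen after seeing the data, the 3 lists gave 9.16, 0.323 and 0.576, and with cells weighted equally 8.33, 0.401 and 0.615. A fold limit of 1.5 gave 887 higher and 920 lower genes and a limit of 3 gave 187 and 168; no level filter gave 1588 and 6257, and a filter of 50 CPM gave 180 and 253. As medians over genes the contractile and matrix ratios were 5.37 and 0.398. The 5 cells with at most 5% mitochondrial UMIs put 11 named genes on the other side of 1: Arhgef17 0.795, Eln 2.34, Etv1 3.09, Gja1 1.69, Gpr20 0, Gucy1b1 1.11, Kcnj8 1.99, Kcns3 0, Nt5e 0, Pde3a 1.13 and S1pr3 2.75. With few UMIs in 5 cells, 9 of these 11 intervals held 1 (not Eln and S1pr3), as did that of Vegfc (0.0368 to 1.10). So did the M columns for Adamdec1 (0.712), Fhl2 (0.921) and Wnt4 (0.510), and the F columns for Ctgf (0.831), the intervals of Fhl2, Wnt4 and Ctgf holding 1. No ratio of the 3 lists or of Vegfc crossed 1 under these settings, but some intervals held 1. These were the YAP/TAZ list at most 5% mitochondrial UMIs (0.699 to 1.002) and Vegfc in 2 further settings. They were cells of 8000 to 14000 UMIs (0.693, 0.395 to 1.13) and the M columns (0.558 to 1.38). The cause of the shifts was not tested.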

Other observations

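The highest ratio among genes past the level filter, the rule genes left out, came from a single cell. Gcg, which encodes the glucagon precursor of enteroendocrine cells, gave 258 UMIs in the 65 smooth muscle cells, all of them in 1 cell of 16634 UMIs, and 6 UMIs in 5 of the other 4043 cells. That cell held 3 of the 5 smooth muscle rule genes, 1 of the 4 fibroblast genes and 2.92% contractile UMIs. The same cell held 36 of the 63 UMIs of Areg, an epidermal growth factor receptor ligand, 26 of the 39 UMIs of Inhba, an activin subunit, 32 of the 38 UMIs of Akr1b8, an aldo-keto reductase, and 25 of the 60 UMIs of Nrg1. Without it the ratios were 2.83 for Areg, 1.31 for Inhba and 0.418 for Akr1b8, against 6.43, 3.85 and 2.58 with it. The 5 epithelial markers were at 0 UMIs in all 65 cells.

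Cxcl15, a chemokine, was spread over more cells. It gave 47 UMIs in 19 of the 65 smooth muscle cells, with 11 in the highest, against 6 UMIs in 6 of the 4043 other cells and 0 in mural cells, a ratio of 527 (225 to 1508). Its share of cells was just under the 30% that the rule for named genes asked for. These genes were chosen after their values were seen.

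The precision of all values was set by 674721 UMIs from 65 cells of 1 library. Genes with few UMIs have wide intervals, and the intervals hold no spread between mice.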
